A study of Mus musculus with 6 samples.

Results

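A set of 10 genes that mark or maintain stem cells of the mouse hair follicle was followed in skin RNA: Lgr5, Lgr6, Lrig1, Cd34, Sox9, Lhx2, Nfatc1, Tcf7l1, Foxc1 and Tbx1. They were chosen by symbol from the deposited count table, and all 10 had a row among its 14484 genes. The skin came from ATR mD/mD mice, whose genotype is given as ATR fl/fl; Braf CA/+; Cre +, and from ATR WT mice, given as ATR +/+; Braf CA/+; Cre +, with 3 libraries in each group. In ATR mD/mD, part of the kinase domain of ATR, the kinase that senses stalled replication forks, was removed, and both groups carried the Braf CA allele and Cre on a C57BL/6-129J background. The series design calls them nevi, the benign lesions that pigment cells form, whereas the tissue label is skin. The promoter that drives Cre, the age of the mice and the body site are not stated in the labels. Nothing in the labels ties each library to a mouse of its own. Y-linked transcripts, given below, differed widely within each group, so its libraries did not all come from the same mouse. The p-values here cover only the spread between samples, part of which may be technical.

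Hair follicles cycle through growth, regression and rest. Their stem cells sit in the bulge, a niche of the permanent upper follicle, with the hair germ just under it, and other progenitors lie higher up, in the isthmus and junctional zone. When growth starts, the hair germ and then the bulge give rise to the outer root sheath, a sleeve of cells around the new hair, which shares several genes with the bulge.

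The libraries held between 34723600 and 46847751 gene counts. Hair genes differed widely between them, in an order that crossed the genotypes. The mean of 34 hair shaft, inner root sheath and hair matrix genes, none of them one of the 10 stem cell genes and here called the hair list, was -0.06, 2.22 and 7.12 log2 CPM (CPM, read counts scaled to a common library size) in ATR mD/mD 1, 2 and 3. In ATR WT 1, 2 and 3 it was 1.95, 6.92 and 7.17 log2 CPM. The hair list was therefore high in ATR mD/mD 3, ATR WT 2 and ATR WT 3 and low in the other 3 libraries. Y-linked transcripts were split differently, with a mean of 4 genes of -3.68, 5.17 and 5.17 log2 CPM in ATR mD/mD 1, 2 and 3 and of 4.75, -4.04 and -3.61 log2 CPM in ATR WT 1, 2 and 3. Within ATR WT the 2 splits coincided, with the hair list high and Y-linked transcripts low in ATR WT 2 and 3. Hair list level and Y-linked level therefore cannot be told apart in that genotype. In whole skin, fewer cells of a type and less RNA per cell cannot be told apart.

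No difference between ATR mD/mD and ATR WT skin passed the test in any of the 10 genes. In 6 of them the libraries of high hair list level all lay above those of low level. At an adjusted p under 0.05 (edgeR's quasi-likelihood test with Benjamini-Hochberg adjustment over all genes), 0 of 10 were called, against 0.0483% of all genes, and all 10 had an adjusted p of 0.9999. At an unadjusted p under 0.05 the count was also 0 of 10, against 1.66% of all genes, and DESeq2 called 0 of 10, against 0.269% of all genes. In each of the 10 genes the 2 genotypes overlapped. All 3 ATR mD/mD libraries lay above all ATR WT libraries in 2.26% of genes and below them in 2.58%. By contrast, the libraries with the 3 highest hair list levels all lay above the other 3 in 6 of the 10 genes, against 19.6% of all genes. They all lay below in 1 of 10, against 17.1% of all genes, so the count below was no higher than that share. The 6 were Lgr5, Sox9, Lhx2, Tcf7l1, Foxc1 and Tbx1, the 1 was Nfatc1, and Lgr6, Lrig1 and Cd34 overlapped. Hair list level is a measured value and not a group of the study, so these counts are a description and carry no test.

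**Figure D1:**
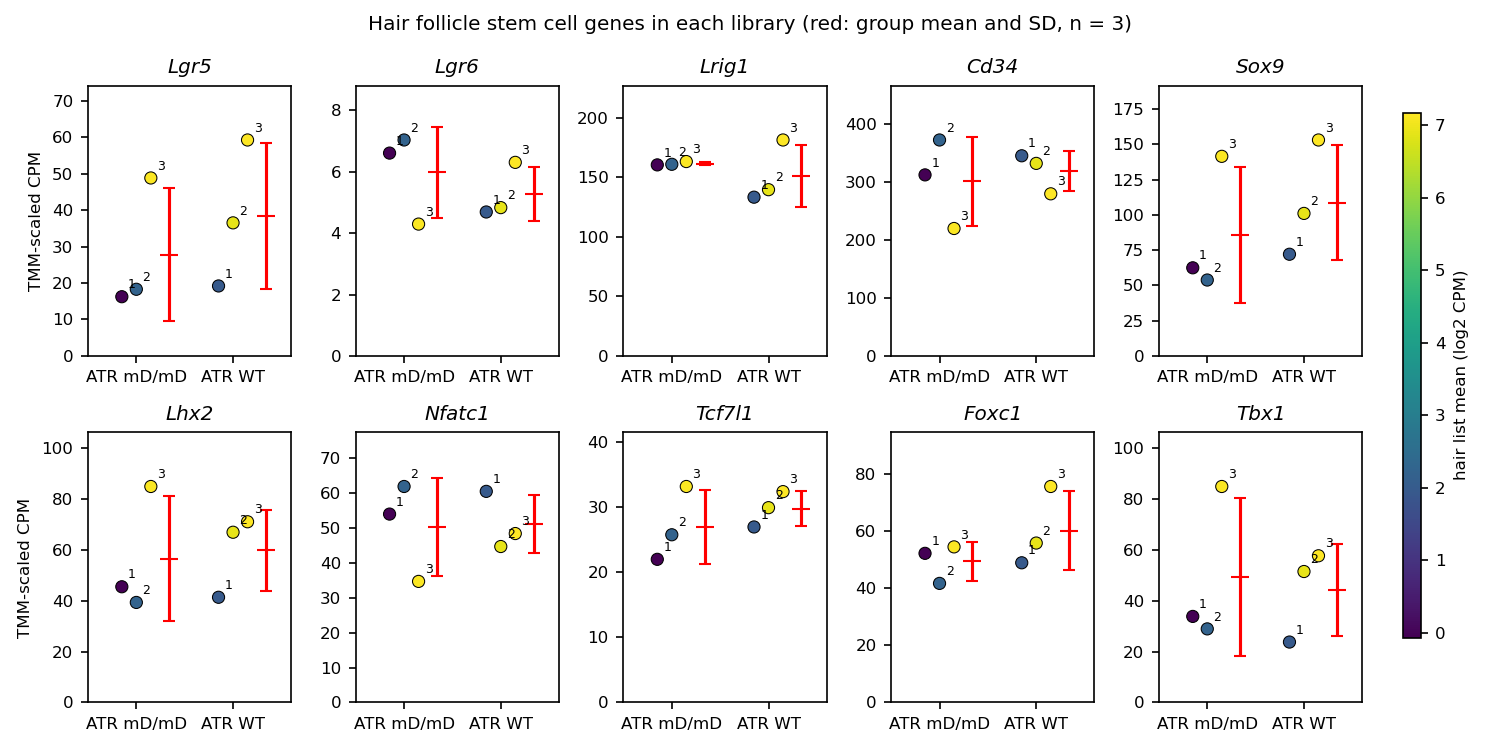
TMM-scaled CPM (vertical axes, from 0) of each stem cell gene in the 3 ATR mD/mD and the 3 ATR WT libraries, with points numbered by replicate and coloured by hair list level, and the group mean and SD in red. Points of high hair list level sit above the others in both genotypes for Lgr5, Sox9, Lhx2, Tcf7l1, Foxc1 and Tbx1, and below them for Nfatc1.

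Among the surface receptors, Lgr5 followed the hair list and its relative Lgr6 did not. Lgr5 (chromosome 10, 115450311 to 115587780, minus strand, mm10) encodes a receptor for R-spondins, secreted proteins that raise Wnt signalling, and marks the lower bulge and hair germ and, in growing follicles, the lower outer root sheath. It had 16.2, 18.3 and 48.8 CPM in ATR mD/mD 1, 2 and 3, against 19.2, 36.5 and 59.2 CPM in ATR WT 1, 2 and 3. In each genotype the libraries with a high hair list level were the high ones, and the genotypes overlapped. The means were 27.8 ± 18.2 CPM in ATR mD/mD and 38.3 ± 20.1 CPM in ATR WT (SD, n = 3 each), a log2 fold change of -0.46 (SE 0.554, 95% interval -1.79 to 0.87). It depended on the libraries included, being -1.15 without ATR mD/mD 3 and -0.01 without ATR WT 3.

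Lgr6 (chromosome 1, 134983301 to 135105276, minus strand), a second R-spondin receptor that marks progenitors of the upper follicle and isthmus, was the least abundant of the 10 genes, with 150 to 308 counts in a library. Its levels were 6.61, 7.03 and 4.29 CPM in ATR mD/mD 1, 2 and 3 and 4.69, 4.83 and 6.30 CPM in ATR WT 1, 2 and 3. The lowest value came from a library of high hair list level and the highest from a library of low level, yet both kinds overlapped. The log2 fold change was 0.18 (SE 0.269, 95% interval -0.47 to 0.83), while leaving out ATR mD/mD 2 gave 0.047 and leaving out ATR mD/mD 3 gave 0.37.

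Lrig1 (chromosome 6, 94604529 to 94700158, minus strand) encodes a membrane protein that restrains receptors of the EGF family and marks the junctional zone above the bulge. It was the steadiest of the 10 genes, the highest library being 1.36-fold above the lowest. It had 160, 161 and 163 CPM in ATR mD/mD 1, 2 and 3, whereas ATR WT 1, 2 and 3 spread over 133, 140 and 181 CPM. All ATR mD/mD values lay within the ATR WT range, and the log2 fold change was 0.09 (SE 0.155, 95% interval -0.28 to 0.47). With 1 library left out it ran from 0.023 (without ATR WT 1) to 0.23 (without ATR WT 3). Exons of Lrig1 overlap those of Slc25a26 on the other strand. The TruSeq RNA v2 kit does not mark strand, so reads in the shared stretch cannot be told apart, and whether they were counted is not stated. Exons of Cd34 and Tcf7l1 likewise overlap Gm16897 and Gm15401 on the other strand, which have no row in the count table.

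Cd34 (chromosome 1, 194938819 to 194961279, plus strand), a cell surface sialomucin that marks mouse bulge cells, was the most abundant of the 10. It is also made by endothelium, mast cells and dermal fibroblasts. Its levels were 312, 372 and 219 CPM in ATR mD/mD 1, 2 and 3 and 345, 332 and 279 CPM in ATR WT 1, 2 and 3. The lowest value of each genotype came from a library of high hair list level, but ATR WT 2, also of high level, lay above ATR mD/mD 1. The log2 fold change was -0.08 (SE 0.222, 95% interval -0.61 to 0.45). Against Cd34, a marker of the same niche, Lgr5 stood at 5.21, 4.92 and 22.3 counts per 100 Cd34 counts in ATR mD/mD 1, 2 and 3 and at 5.57, 11.01 and 21.2 in ATR WT 1, 2 and 3. This ratio within a library does not depend on scaling, and it was highest in the 3 libraries of high hair list level. It also rises where Cd34 falls, and Cd34 was lowest in ATR mD/mD 3 and ATR WT 3, which had the highest ratios. The part of Cd34 from cells outside the niche was not tested.

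The transcription factor genes Sox9, Lhx2 and Tbx1 also followed the hair list, the highest library being 2.85-fold, 2.16-fold and 3.58-fold above the lowest, beside 3.65-fold for Lgr5. Sox9 (chromosome 11, 112782224 to 112787760, plus strand) encodes an HMG-box factor needed to form and maintain the bulge and is made throughout the outer root sheath. It had 62.5, 53.9 and 142 CPM in ATR mD/mD 1, 2 and 3, against 72.1, 101 and 153 CPM in ATR WT 1, 2 and 3. The split between high and low hair list level held in both genotypes, with ATR mD/mD 3 between ATR WT 2 and ATR WT 3. Within low level the order did not hold, as ATR mD/mD 1 lay above ATR mD/mD 2. The log2 fold change was -0.34 (SE 0.441, 95% interval -1.40 to 0.72), and it was -0.90 without ATR mD/mD 3 (adjusted p = 0.708, edgeR) and -0.02 without ATR WT 3.

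Lhx2 (chromosome 2, 38339281 to 38369733, plus strand) encodes a LIM-homeodomain factor of the bulge and hair germ. It was at 45.4, 39.3 and 84.8 CPM in ATR mD/mD 1, 2 and 3 and at 41.3, 66.9 and 71.0 CPM in ATR WT 1, 2 and 3. ATR mD/mD 3 was the highest library and ATR mD/mD 2 the lowest, so the widest gap of this gene lay within ATR mD/mD. The log2 fold change was -0.08 (SE 0.344, 95% interval -0.91 to 0.75).

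Tbx1 (chromosome 16, 18580979 to 18590671, minus strand) encodes a T-box factor and showed the same split. It is known in the follicle for the self-renewal of bulge cells and outside it for the development of lymphatic vessels and muscle. It had 33.9, 29.0 and 85.0 CPM in ATR mD/mD 1, 2 and 3, against 23.8, 51.5 and 57.7 CPM in ATR WT 1, 2 and 3. At low hair list level ATR mD/mD 1 and 2 lay above ATR WT 1, and at high level ATR mD/mD 3 lay above ATR WT 2 and 3. Over all libraries the log2 fold change was 0.15 (SE 0.502, 95% interval -1.05 to 1.36). Fitted in edgeR with hair list level as a covariate, it was 0.59 (SE 0.212, unadjusted p = 0.0286), the largest of the 10, with an adjusted p of 0.985.

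Tcf7l1 and Foxc1 had the same split by hair list level with smaller gaps. Tcf7l1 (chromosome 6, 72626378 to 72789254, minus strand) encodes a DNA-binding partner of beta-catenin that acts mainly as a repressor and is made in bulge and outer root sheath. Its levels were 22.0, 25.8 and 33.2 CPM in ATR mD/mD 1, 2 and 3 and 27.0, 30.0 and 32.4 CPM in ATR WT 1, 2 and 3. The log2 fold change was -0.14 (SE 0.184, 95% interval -0.58 to 0.30), while leaving out ATR mD/mD 1 gave -0.011 and leaving out ATR mD/mD 3 gave -0.32. Foxc1 (chromosome 13, 31806633 to 31812476, plus strand), a forkhead factor that keeps bulge cells quiescent once growth is under way and is also made by dermal and vascular cells, had 52.1, 41.6 and 54.4 CPM in ATR mD/mD 1, 2 and 3. In ATR WT 1, 2 and 3 it had 48.8, 55.7 and 75.5 CPM. ATR mD/mD 1, of low hair list level, lay only a little under ATR mD/mD 3, so the split of Foxc1 rested on small gaps. Its log2 fold change was -0.28 (SE 0.197, 95% interval -0.75 to 0.19, unadjusted p = 0.199 by edgeR), the smallest p of the 10, and -0.09 without ATR WT 3.

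Nfatc1 ran the other way. It encodes a transcription factor switched on by the phosphatase calcineurin, holds bulge cells in rest, and is also made by endothelium and osteoclasts (chromosome 18, 80606205 to 80713071, minus strand). It had 54.0, 61.9 and 34.7 CPM in ATR mD/mD 1, 2 and 3, against 60.5, 44.7 and 48.4 CPM in ATR WT 1, 2 and 3. The libraries of high hair list level were the 3 lowest, and ATR mD/mD 3 was the lowest of all. Between genotypes the log2 fold change was -0.03 (SE 0.238, 95% interval -0.60 to 0.54).

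**Figure D2:**
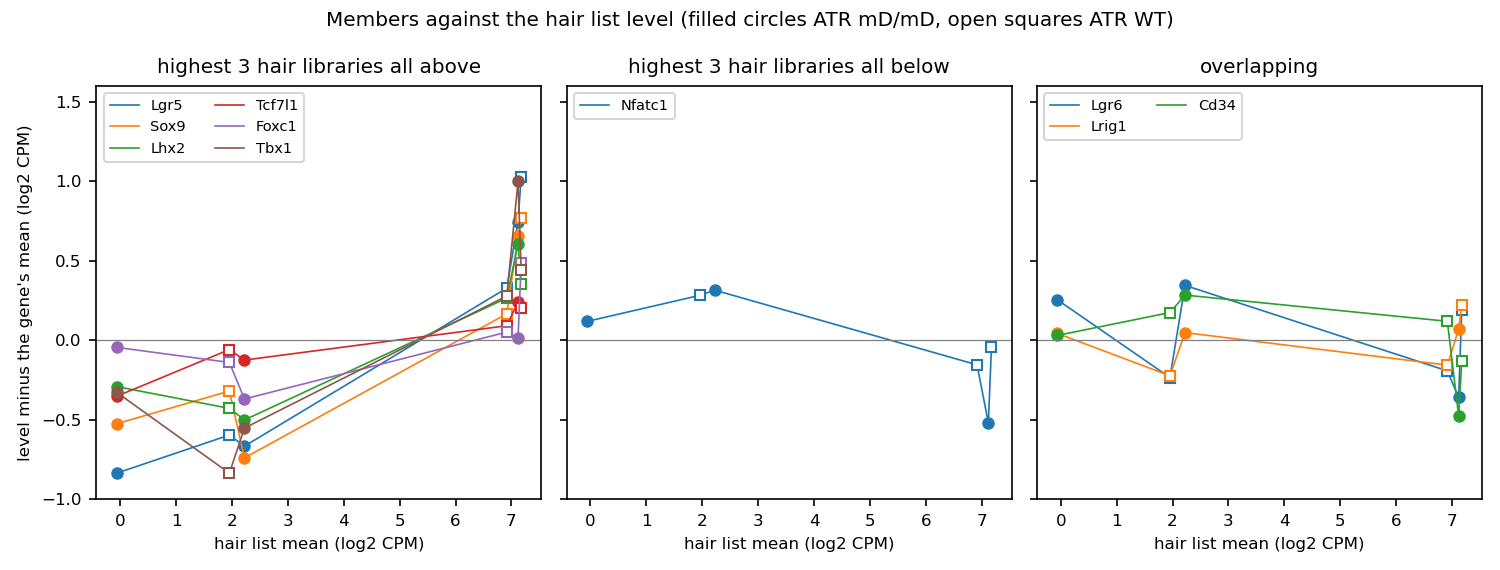
Level of each stem cell gene minus its mean over 6 libraries (vertical axis, log2 CPM) against the hair list mean (horizontal axis, log2 CPM), with ATR mD/mD as filled circles and ATR WT as open squares, and lines joining the libraries of 1 gene in order of hair list level. Lgr5 spans -0.84 in ATR mD/mD 1 to 1.03 in ATR WT 3, and Nfatc1 runs from 0.32 in ATR mD/mD 2 to -0.52 in ATR mD/mD 3.

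As a list, 7 of the 10 genes had a negative log2 fold change and 3 a positive one, with a median of -0.08, beside 6955 negative, 7529 positive and a median of 0.01 over all genes tested. Fitted with that covariate, 5 were negative and the median was 0.01. Every 95% interval of the 10 held 0, and the intervals of Lgr5, Sox9 and Tbx1 reached past 1 on the log2 scale in at least 1 direction, so a change of that size in these genes was not excluded by their own intervals. Set side by side at like hair list level, ATR mD/mD 3 lay above both ATR WT 2 and ATR WT 3 in 3 genes (Lhx2, Tcf7l1 and Tbx1), between them in 3 and below both in 4 (Lgr6, Cd34, Nfatc1 and Foxc1). At low level, ATR mD/mD 1 and 2 both lay below ATR WT 1 in 3 genes (Lgr5, Sox9 and Tcf7l1), on either side of it in 4 and both above it in 3 (Lgr6, Lrig1 and Tbx1). Tbx1 was the gene in which the ATR mD/mD libraries lay above the ATR WT libraries at both levels. Each of these settings holds 1 library of a genotype, so none was tested. The same positions were not counted over all genes. These counts, and the place of Tbx1 among them, are therefore a description and no result about the 10 genes.

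**Figure D3:**
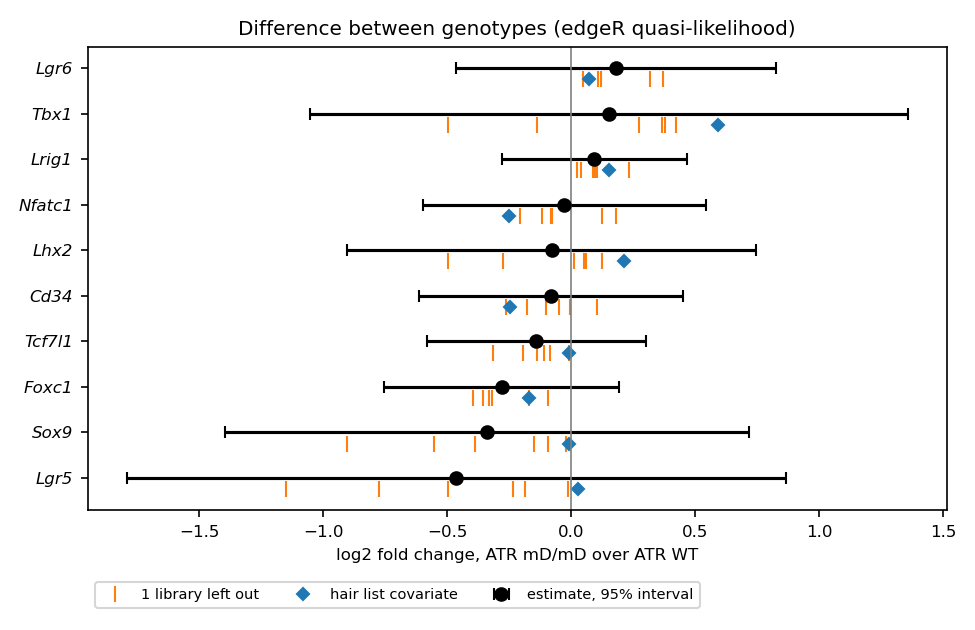
Log2 fold change of ATR mD/mD over ATR WT (horizontal axis) for each stem cell gene, with its 95% interval in black, the values with 1 library left out as orange ticks and the value with the hair list covariate as a blue diamond. All black intervals cross 0, Lgr5 has the widest at -1.79 to 0.87, and the ticks of Cd34, Lhx2, Nfatc1 and Tbx1 fall on both sides of 0.

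Per kilobase of annotated exon, a rough way to compare levels of different genes, Cd34 was highest with a mean of 42.5 CPM per kb over the 6 libraries (lowest 30.1, highest 51.0). The length took in every annotated exon of a gene, whichever transcripts the skin made, so the order depends in part on the annotation. Lrig1 followed with 28.0 (23.8 to 32.5) and Sox9 with 23.6 (13.0 to 37.1) CPM per kb. Tbx1 and Lhx2 were at 13.3 (6.76 to 24.2) and 13.2 (8.94 to 19.3) CPM per kb, and Foxc1, Tcf7l1 and Nfatc1 at 9.36 (7.12 to 12.9), 7.24 (5.61 to 8.47) and 6.79 (4.65 to 8.29). Lgr5 had 3.22 (1.58 to 5.77) and Lgr6 0.82 (0.63 to 1.03) CPM per kb. All neighbours in this order overlapped in their ranges over libraries, except that Lgr6 lay below Lgr5 throughout.

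Of the 10 genes, 4 spanned more than 1 on the log2 CPM scale over the libraries: Lgr5 (1.86), Tbx1 (1.84), Sox9 (1.51) and Lhx2 (1.11). Likeness of pattern was measured as the root mean square difference of log2 CPM, each gene centred on its own mean, over the 6 libraries. Among these 4, Lgr5 and Sox9 were closest to each other (0.217), followed by Lhx2 and Sox9 (0.227) and Lhx2 and Tbx1 (0.235). Among 12982 other genes, the nearest to Lgr5 were Igsf3, an immunoglobulin superfamily gene (0.0539), Nfe2l3, a leucine zipper factor (0.0970), and Ero1l, an oxidase of the endoplasmic reticulum (0.116). Igsf3 was at 13.7, 15.9 and 40.4 CPM in ATR mD/mD 1, 2 and 3 and at 16.1, 32.7 and 47.1 CPM in ATR WT 1, 2 and 3. Sox9 was nearest to Phactr1, a regulator of actin (0.0747), Eva1a (0.123) and Usp43, a deubiquitinase gene (0.124). Nearest to Lhx2 were the condensin subunit gene Smc2 (0.0515), Gsg2, which encodes the mitotic kinase haspin (0.0554), and the transcription factor gene Dach1 (0.0589). For Tbx1 they were Gclc (0.0611) and Gclm (0.110), which encode the 2 subunits of the enzyme that starts glutathione synthesis, and Kif20b, a mitotic kinesin gene (0.0616). These genes were picked out of the same 6 libraries for their likeness, which is no test.

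RefSeq promoter windows, from 250 bases before to 50 after a start site, were found for 7 of the 10 genes. They are shown for 2 transcription factor genes that moved with the hair list (Lhx2 and Tbx1) and for 2 genes that did not (Lgr6 and Cd34). Foxc1 is added because its window held the most matches. Each is written 5′ to 3′ on the strand of the gene (GRCm38.p6, the NCBI name of mm10), with capitals marking a match to the core letters bound by 1 of the 6 transcription factors among the 10 genes.
Lhx2, chr2:38339031-38339330, plus strand: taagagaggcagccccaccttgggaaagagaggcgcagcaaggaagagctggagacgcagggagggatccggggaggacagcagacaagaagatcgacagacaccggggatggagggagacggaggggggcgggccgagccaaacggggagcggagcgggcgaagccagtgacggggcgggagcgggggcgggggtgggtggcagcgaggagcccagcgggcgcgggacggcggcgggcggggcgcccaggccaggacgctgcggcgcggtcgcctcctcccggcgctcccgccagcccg
Tbx1, chr16:18590622-18590921, minus strand: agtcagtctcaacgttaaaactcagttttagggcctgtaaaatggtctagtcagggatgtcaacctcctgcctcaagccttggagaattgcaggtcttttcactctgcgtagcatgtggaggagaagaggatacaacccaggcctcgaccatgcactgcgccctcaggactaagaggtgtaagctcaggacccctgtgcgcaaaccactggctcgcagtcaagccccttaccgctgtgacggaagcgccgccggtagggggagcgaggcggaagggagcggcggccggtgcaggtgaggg
Foxc1, chr13:31806396-31806695, plus strand: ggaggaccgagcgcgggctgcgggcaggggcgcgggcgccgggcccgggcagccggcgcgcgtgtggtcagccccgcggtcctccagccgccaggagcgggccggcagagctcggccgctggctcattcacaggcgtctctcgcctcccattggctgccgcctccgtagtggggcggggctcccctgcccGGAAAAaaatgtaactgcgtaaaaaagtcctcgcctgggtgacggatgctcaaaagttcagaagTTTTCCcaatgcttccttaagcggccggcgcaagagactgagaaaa
Lgr6, chr1:135105227-135105526, minus strand: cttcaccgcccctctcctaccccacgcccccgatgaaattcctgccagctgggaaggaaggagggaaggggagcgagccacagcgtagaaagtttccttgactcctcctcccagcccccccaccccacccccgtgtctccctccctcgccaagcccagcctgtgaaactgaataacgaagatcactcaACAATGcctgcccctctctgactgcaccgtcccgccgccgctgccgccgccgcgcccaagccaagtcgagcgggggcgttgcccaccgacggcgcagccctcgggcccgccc
Cd34, chr1:194938571-194938870, plus strand: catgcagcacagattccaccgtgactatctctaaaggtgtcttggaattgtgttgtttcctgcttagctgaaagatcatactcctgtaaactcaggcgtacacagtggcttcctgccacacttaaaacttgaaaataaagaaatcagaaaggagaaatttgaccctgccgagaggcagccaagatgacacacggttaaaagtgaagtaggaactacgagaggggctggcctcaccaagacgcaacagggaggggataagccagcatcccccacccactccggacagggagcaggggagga

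The letters searched, on both strands, were CTTTGA for Tcf7l1, ACAATG for Sox9, TAATTA for Lhx2, GGAAAA for Nfatc1, TAAACA for Foxc1 and GGTGTGA for Tbx1. Of 32544 distinct promoter windows, 16.0% held the Tcf7l1 letters, 12.4% the Sox9 letters, 5.29% the Lhx2 letters, 23.3% the Nfatc1 letters, 13.4% the Foxc1 letters and 3.95% the Tbx1 letters. The Lgr6 window held ACAATG, and the Foxc1 window held GGAAAA and its reverse complement TTTTCC. The printed windows of Lhx2, Tbx1 and Cd34 held none of the 6. Lhx2 and Tbx1 each have a further window at another start site, and that of Lhx2 (chr2:38351058-38351357) held TTTTCC, whereas that of Tbx1 held none. GC content was 74.7% in the Lhx2 window, 58.3% in Tbx1, 67.3% in Foxc1, 67.7% in Lgr6 and lowest in Cd34, beside a median of 53.0% over all windows. A match is a run of letters and not a measured binding site.

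Other genes of the bulge and hair germ were taken from a list of 23, all of them measured. None was called between genotypes, at 0 of 23, with 14 negative and 9 positive log2 fold changes and a median of -0.16. By hair list level, 11 of the 23 had the libraries of the 3 highest levels above the others and 2 had them below, against 19.6% and 17.1% of all genes. The 2 below were Krt15 and Ctgf. Krt15, the keratin long used as a marker of the bulge, was at 4597, 4650 and 3525 CPM in ATR mD/mD 1, 2 and 3 and at 4796, 2861 and 2573 CPM in ATR WT 1, 2 and 3, so it ran against Lgr5 and Sox9 and with Nfatc1. Its log2 fold change was 0.32 (SE 0.316). Krt15 averaged 4258 CPM in ATR mD/mD and 3410 CPM in ATR WT. That lay between the basal keratinocyte markers Krt14 (2795 and 2940 CPM) and Krt5 (4865 and 4476 CPM). The part of basal keratinocytes in the values of Krt15 was not tested. Krt24, another bulge keratin, had the smallest p of the list and was at 19.9 ± 2.67 CPM in ATR mD/mD and 13.5 ± 4.02 CPM in ATR WT (SD, n = 3 each; log2 fold change 0.56, SE 0.241, adjusted p = 0.9999, edgeR). Of 12 genes listed for the upper follicle, 0 were called, 9 were negative with a median of -0.06, and 4 followed the hair list while 0 ran against it. The 4 were Krt17, Krt75, Prdm1 and Klk10, and the rest, Krt79, Plet1, Gata6 and Defb6 among them, overlapped. Krt75 was at 6.23, 11.2 and 287 CPM in ATR mD/mD 1, 2 and 3 and at 14.45, 242 and 319 CPM in ATR WT 1, 2 and 3. The part of other follicle layers in the values of these genes, Krt17 and Krt75 among them, was not tested.

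Partners of the receptors were mixed. Of 18 listed genes of LGR and R-spondin signalling 17 were measured, with 0 called, 10 negative and 7 positive, and a median of -0.03. By hair list level 6 of 17 lay above and 3 below, against 19.6% and 17.1% of all genes, so the count below is near that of all genes. Lgr4, the third receptor of the family, followed Lgr5, with 60.7, 64.9 and 117 CPM in ATR mD/mD 1, 2 and 3 and 58.1, 96.7 and 129 CPM in ATR WT 1, 2 and 3. Rspo3, an R-spondin, had the smallest p of the list and the opposite split. It was at 11.7, 11.2 and 8.16 CPM in ATR mD/mD 1, 2 and 3. In ATR WT 1, 2 and 3 it was at 10.8, 6.83 and 4.52 CPM. The log2 fold change was 0.49 (SE 0.346). Axin2, a target of Wnt signalling, also ran against the hair list, with 49.1, 60.4 and 23.4 CPM in ATR mD/mD 1, 2 and 3 and 52.5, 37.1 and 38.0 CPM in ATR WT 1, 2 and 3. Ctnnb1, which encodes beta-catenin, was the most abundant of the list and averaged 620 ± 125 CPM in ATR mD/mD and 727 ± 177 CPM in ATR WT (SD, n = 3 each).

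Of 12 measured genes of LRIG and EGF receptor signalling 0 were called, with 8 negative and 4 positive log2 fold changes, a median of -0.08, and 4 above and 3 below by hair list level (19.6% and 17.1% of all genes). The Lrig1 relatives Lrig2 and Lrig3 had differences of -0.0086 (SE 0.14) and 0.0037 (SE 0.144) on the log2 scale, and both overlapped by hair list level, as Lrig1 did. Hbegf, an EGF receptor ligand, had the smallest p of the list, with 12.01 ± 7.21 CPM in ATR mD/mD and 20.6 ± 8.62 CPM in ATR WT (SD, n = 3 each; log2 fold change -0.78, SE 0.473), and Erbb2 was its most abundant gene (log2 fold change 0.01, SE 0.127). Of 13 genes of the calcineurin and NFAT list, 0 were called, and 9 were negative and 4 positive with a median of -0.04. By hair list level 2 of 13 lay above (Cdk4 and Bmpr1a) and 4 below (Ppp3ca, Ppp3cb, Ppp3r1 and Rcan2). Over all genes 19.6% lay above and 17.1% below, so the share above was under that of all genes and the share below over it. Of the catalytic calcineurin subunit genes, Ppp3ca and Ppp3cb lay below and Ppp3cc overlapped, with its highest value in ATR mD/mD 3. The relatives Nfatc2, Nfatc3 and Nfatc4 overlapped as well. Ppp3ca was at 284, 272 and 208 CPM in ATR mD/mD 1, 2 and 3 and at 343, 237 and 222 CPM in ATR WT 1, 2 and 3.

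**Figure D4:**
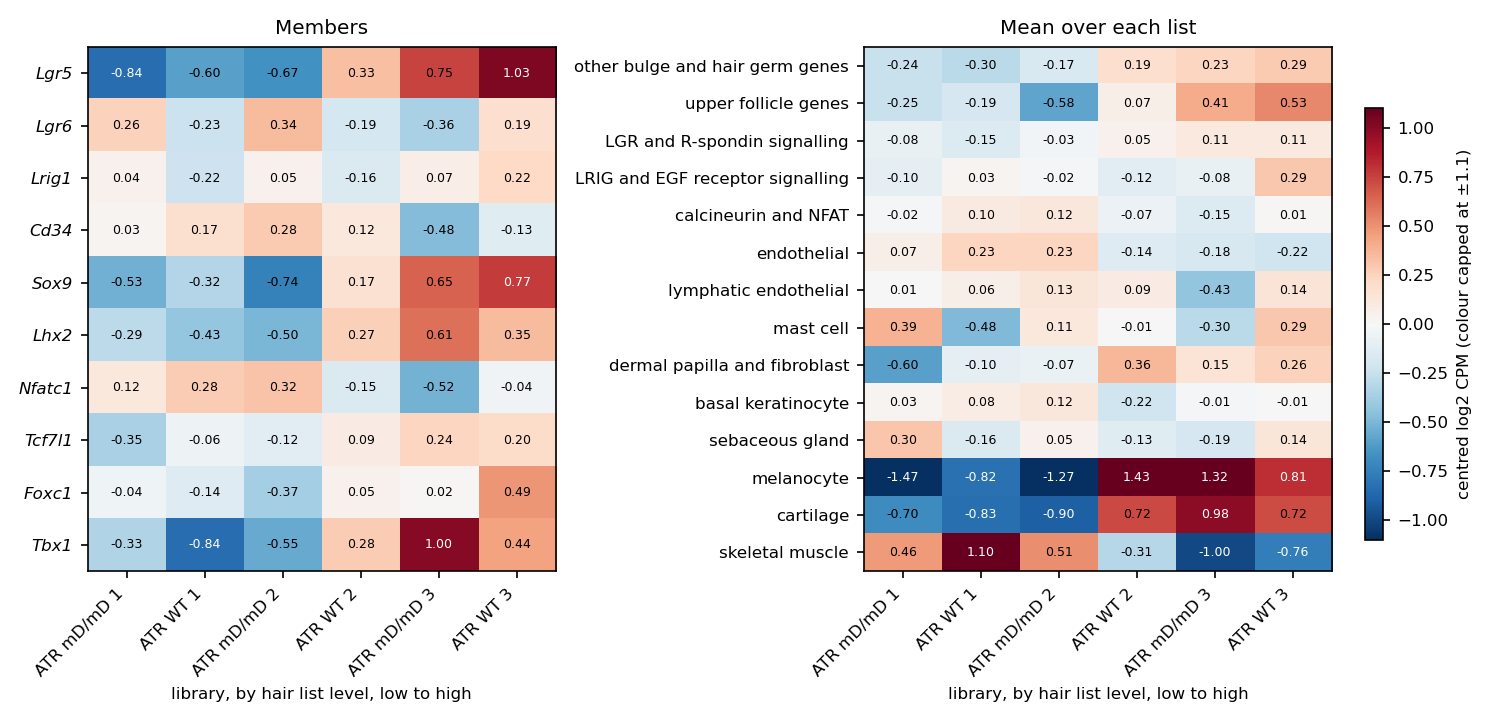
Level of each stem cell gene (left) and mean over each gene list (right) minus its own mean over the 6 libraries, in log2 CPM, with libraries ordered from low to high hair list level and the value printed in each cell. The other bulge and hair germ genes run from -0.30 in ATR WT 1 to 0.29 in ATR WT 3, and skeletal muscle runs the other way, from 1.096 in ATR WT 1 to -0.9955 in ATR mD/mD 3.

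Markers of other cells that can make these transcripts were counted in the same way, beside the 19.6% of all genes with the libraries of high hair list level above the others and the 17.1% with them below. Of 10 endothelial markers, 6 had the libraries of high level below the others and 0 above, and their summed level was 443, 497 and 384 CPM in ATR mD/mD 1, 2 and 3 and 510, 384 and 359 CPM in ATR WT 1, 2 and 3. Nfatc1 had the same 3 libraries lowest, although in another order among them, and Cd34 overlapped. The part of endothelium in their values was not tested. Pecam1, the most abundant endothelial marker, was at 97.3, 118 and 82.0 CPM in ATR mD/mD 1, 2 and 3 and at 116, 90.0 and 88.0 CPM in ATR WT 1, 2 and 3. All 9 measured skeletal muscle markers were below in the libraries of high level, with sums of 7254 to 21250 CPM in ATR mD/mD and 7829 to 33130 CPM in ATR WT. Melanocyte markers went the other way in 9 of 10 genes, with sums of 156 to 906 CPM in ATR mD/mD and 216 to 909 CPM in ATR WT. The part of melanocytes in the values of Sox9, which pigment cells also make, was not tested.

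The counts of the remaining marker lists also stand beside 19.6% of all genes above and 17.1% below. Dermal papilla and fibroblast markers summed to 7449 to 16610 CPM in ATR mD/mD and 14140 to 18000 CPM in ATR WT, with ATR mD/mD 1 the lowest and 3 of 12 genes above and 1 below by hair list level. Mast cell markers summed to 228 to 322 CPM in ATR mD/mD and 234 to 341 CPM in ATR WT, with 1 of 9 above and 0 below. The 5 lymphatic markers measured, which did not include Prox1, summed to 84.1 to 101 CPM in ATR mD/mD and 103 to 111 CPM in ATR WT, with 1 above and 1 below. Basal keratinocyte markers, which check that epidermis was present, summed to 8277 to 9379 CPM in ATR mD/mD and 7009 to 9713 CPM in ATR WT, with 0 of 8 above and 3 below. Sebaceous gland markers summed to 1193 to 1671 CPM in ATR mD/mD and 1143 to 1223 CPM in ATR WT, with 0 of 9 above and 3 below. The 3 cartilage markers measured, of 7 listed, summed to 5.41 to 22.8 CPM in ATR mD/mD and 7.28 to 12.7 CPM in ATR WT, with 1 above and 0 below. No member of these marker lists, nor of the pathway lists above, was called between genotypes by edgeR. At an unadjusted p under 0.05 there was 1 such gene each among the mast cell (Tpsab1), fibroblast (Sox2), melanocyte (Sox10) and cartilage (Hapln1) markers and 0 in the other lists, against 1.66% of all genes. DESeq2 called 1 melanocyte marker, Sox10, and 0 genes of the other lists, against 0.269% of all genes. Sox10 was at 17.6, 20.9 and 23.6 CPM in ATR mD/mD 1, 2 and 3 and at 31.3, 43.8 and 35.0 CPM in ATR WT 1, 2 and 3.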

How the data were processed

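Skin RNA of 6 samples was selected with oligo dT beads and made into TruSeq RNA v2 libraries, per the labels' protocols. Per the submitters' processing notes, FastQC, TopHat2 2.0.12 and edgeR were used with build mm10; the sources used here do not name the read counter, annotation or filter. Per the file headers, raw read counts per gene and library were deposited in 1 table, beside log2 fold changes, mean log2 CPM and p-values from a comparison the authors ran. The values reported here were refitted from the counts. Of 14486 rows, 2 name no gene (4.93% to 5.73% of counts) and were left out.

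Counts were scaled with TMM and tested with edgeR 4.0.16 (quasi-likelihood, no covariate, R 4.3.3) on all 14484 genes, which all passed filterByExpr, with Benjamini-Hochberg adjustment. Log2 CPM values used a prior count of 2. The SE is the absolute log2 fold change over the square root of F, and 95% intervals use its degrees of freedom. The fit was run on simulated counts with the same dispersion for every gene, large changes and no spread in hair genes. That run checks the code and not the power or error of the test in these libraries. Alternatives were relative log expression (RLE) size factors in edgeR, DESeq2 1.42.0, limma-voom (limma 3.58.1), filters and a replicate block. Further ones were covariates for hair list and Y-linked level, a threshold of 0.01, and leaving out each library. Pairs within a group differed beyond sampling noise (chi-square per degree of freedom at least 55.3).

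Positions and exon lengths come from GENCODE M21. The 10 genes and all gene lists were chosen with earlier results of these data known. Beside the 10 genes, the naming rule took the 3 nearest patterns of each gene spanning more than 1 log2 CPM. These came from genes with a mean log2 CPM of at least 1. Per list, it took the genes of smallest p and of highest level, not all of which are printed. Lgr4, Axin2, Lrig2, Lrig3, Nfatc2, Nfatc3, Nfatc4, Ppp3cb, Ppp3cc and Ctgf, and the motifs, were chosen after values were seen. So were Krt14, Krt17, Krt75, Krt79, Prdm1, Klk10, Plet1, Gata6, Defb6, Ppp3r1, Rcan2, Cdk4 and Bmpr1a.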

Additional observations from a re-analysis of the deposited data

How the results depend on the processing

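The 10 genes stayed uncalled under all 14 alternatives, with adjusted p-values of 0.708 or above. Over 140 such values 11 changed sign, and Foxc1, Lgr6, Lrig1, Sox9 and Tcf7l1 never did. The settings with no filter and with at least 1 CPM in 3 samples repeated the values of the main fit. Their values are among the 140 but could not differ. With the hair list covariate Lgr5 was at 0.025 and Lhx2 at 0.21 (log2 fold change). Leaving out 1 library gave ranges of -0.26 to 0.10 for Cd34, -0.50 to 0.13 for Lhx2, -0.21 to 0.18 for Nfatc1 and -0.50 to 0.42 for Tbx1, and of -0.34 (without ATR mD/mD 3) to -0.018 for the median of the 10 genes. The cause was not tested. The number of genes called over the whole table was 7, with 39 by DESeq2, 4 with the Y-linked covariate, and 4 to 10 with 1 library left out. The counts by hair list level, 6 above and 1 below, were the same with only the 12 hair shaft keratins as the list and with RLE size factors.

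Replicate numbers are shared by the groups. Libraries of the same number deviated together for 1 and 3 but not for 2 (correlations of 0.633, -0.509 and 0.573 for numbers 1, 2 and 3). ATR mD/mD 3 was closer to ATR WT 2 (0.701) than to ATR WT 3, so the numbers were not taken to pair the samples. With the number as a block, 6 genes were called, 0 of them among the 10. The block lowered the SE of Lgr5 to 0.213 and of Sox9 to 0.209. It raised that of Lgr6 to 0.33 and of Lrig1 to 0.175. Lgr6, with 150 to 308 counts in a library, is the gene with the least depth behind it, and 3 libraries a group limit the precision of the others.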
